A study of Mus musculus with 6 samples.

Results

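The genes described here are 10 transcription factors of the oligodendrocyte lineage, the glial cells that wrap axons of the central nervous system in myelin. They are Olig1, Olig2, Sox10, Sox8, Nkx2-2, Nkx6-2, Myrf, Zfp488, Tcf7l2 and St18, and they were taken by gene symbol from the authors' deposited table of 13192 tested genes. Of the 10 listed genes, 9 had values that could be used, and St18 was not analysed here. No filter on low values was added, but every gene of that table has at least 0.594 FPKM in its higher group, so weaker genes are not covered. All 9 lie above that edge in both groups.

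Oligodendrocytes arise from precursor cells that divide, commit, leave the cell cycle and then switch on the genes of myelin. OLIG1 and OLIG2 are basic helix-loop-helix factors, SOX10 and SOX8 are SOXE factors with an HMG box, and these mark the lineage from the precursor onward. NKX2-2 is a homeodomain factor of precursors and newly differentiating cells. MYRF, NKX6-2, ZFP488, TCF7L2 and ST18 are linked to differentiation: MYRF is a membrane-anchored factor that is cleaved to release a DNA-binding fragment, and it activates myelin genes together with SOX10.

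The series compared RNA on HA-tagged ribosomes, pulled down with an anti-HA antibody from cortex at postnatal day 25, between 3 Control and 3 Rheb cKO libraries. Rheb is a small GTPase that switches on mTORC1, a kinase complex that promotes growth. The titles give Control as Rheb floxp/floxp with Ribo-HA k/+, and Rheb cKO as those alleles plus Syn-Cre, that is, Cre driven by the promoter of synapsin, a neuronal gene. The genotype label of the latter reads Rheb knockdown. No Cre is named for Control, so what tagged its ribosomes is not given, and Cre and the loss of Rheb cannot be told apart in this design. Values are FPKM, fragments scaled to transcript length and to library size, with 1 value pooled by the authors per group. Neither the variation among the 3 libraries of a group nor their depth can be read from such values, so no SD is given, and whether the libraries came from different animals is not stated.

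Rheb itself stood at 22.7 FPKM in Control and at 9.20 in Rheb cKO (log2 fold change -1.30, q = 0.00161, Cuffdiff, in the authors' deposited table). The labels name the cell type as neuron, and all 12 neuron markers examined had values, summing to 4128 FPKM in Control and 4469 in Rheb cKO. All 19 myelin and late oligodendrocyte genes examined had values too, summing to 4258 FPKM in Control and 1511 in Rheb cKO. Oligodendrocyte transcripts were therefore measured in both groups under a neuron label, and no marker of either list was at 0.

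Nkx6-2, Myrf, Olig1, Sox10 and Sox8 fell in Rheb cKO, to between 38.7% and 76.0% of their Control level, whereas Olig2, Nkx2-2, Tcf7l2 and Zfp488 were not called. These 5 of 9 compare with 4.58% of all 13192 genes called lower at a q under 0.05 by Cuffdiff, and with 8.72% called in either direction. The factors and the gene lists below were chosen with earlier results of these data known, so such comparisons are descriptions, not tests. None of the 9 was called higher (4.14% of all genes), 0 also at an unadjusted p under 0.05. The median log2 fold change was -0.43 over the 9 genes and 0.03 over all genes with a finite fold. Folds below 0 were found for 8 of the 9, against 45.4% of all genes. At an unadjusted p under 0.05 the same number, 5, was lower, beside 9.73% of all genes. At a q under 0.01 there were 3, Nkx6-2, Myrf and Olig1, beside 2.77% of all genes. In these anti-HA precipitates of cortex, fewer cells of a type, less RNA per cell and a different share of that RNA captured or carried over cannot be told apart, and this holds for each value below.

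**Figure D1:**
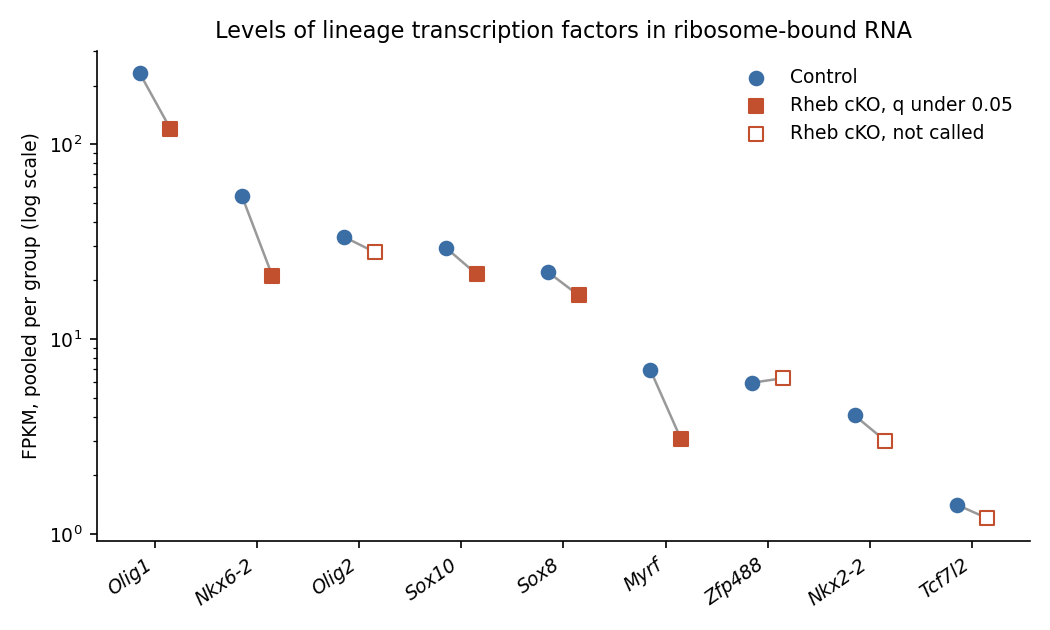
Level of each factor as FPKM on a log axis, 1 pooled value per group, with Control as circles and Rheb cKO as squares (filled where q is under 0.05). Olig1 stood highest in both groups, Nkx6-2 moved from the second place in Control to the fourth in Rheb cKO, and the line for Zfp488 is nearly flat.

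FPKM is scaled to transcript length, so levels are set side by side here. The part of sequence shared with other genes, described below, in this order was not tested. In Control the order was Olig1 (232.0 FPKM), Nkx6-2 (54.5), Olig2 (33.5), Sox10 (29.4), Sox8 (22.05), Myrf (6.96), Zfp488 (5.98), Nkx2-2 (4.06) and Tcf7l2 (1.41). In Rheb cKO it was Olig1 (120.4 FPKM), Olig2 (28.01), Sox10 (21.5), Nkx6-2 (21.1), Sox8 (16.8), Zfp488 (6.30), Myrf (3.07), Nkx2-2 (3.01) and Tcf7l2 (1.204). Whether neighbours in these orders differ beyond the spread between libraries could not be examined from pooled values.

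Of the basic helix-loop-helix pair, Olig1 was called and Olig2 was not. Olig1, which supports maturation and remyelination, went from 232.0 FPKM in Control to 120.4 in Rheb cKO, or 51.9% of the Control level. The authors' deposited table gives it a log2 fold change of -0.95 (q = 0.00161, Cuffdiff). Its neighbour Olig2, which specifies the lineage, went from 33.5 to 28.01 FPKM, 83.6% of Control, and was not called there (-0.26, q = 0.245, authors' deposited table). Both genes lie on the plus strand of chromosome 16 in mm10, Olig2 at 91225457 to 91228677 and Olig1 at 91269772 to 91271933, with 41094 bases between them. The ratio of Olig1 to Olig2 was 6.93 in Control and 4.30 in Rheb cKO, and the difference between the 2 folds was not tested.

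Sox10 and Sox8 both fell, while Sox9, the SOXE factor outside the 10 genes, stood at 3.19 and 3.61 FPKM and was not called (0.18, q = 0.592, authors' deposited table). Sox10, which sustains the lineage and acts on myelin genes, went from 29.4 to 21.5 FPKM, 73.2% of the Control level. It was called in the authors' deposited table (log2 fold change -0.45, q = 0.0170, Cuffdiff). Sox8, its close relative with overlapping roles, went from 22.05 to 16.8 FPKM, 76.0% of Control, and was also called in the authors' deposited table (-0.40, q = 0.0381). Sox10 lies on the minus strand of chromosome 15 (79154908 to 79165240) and Sox8 on the minus strand of chromosome 17 (25565892 to 25570686). The ratio of Sox10 to Sox8 was 1.33 in Control and 1.28 in Rheb cKO.

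Of the homeodomain factors, Nkx6-2 had the most negative fold of the 9. In the mouse it is known for a part in the fine structure of the paranodes, where myelin meets the axon. Its level went from 54.5 FPKM in Control to 21.1 in Rheb cKO, 38.7% of the Control level. That is a log2 fold change of -1.37 in the authors' deposited table (q = 0.00161, Cuffdiff), place 114 from the lowest among 13175 finite folds. Nkx2-2 went from 4.06 to 3.01 FPKM, 74.2% of Control. It was not called in the authors' deposited table (-0.43, q = 0.423), where Sox10 and Sox8, with folds of -0.45 and -0.40, were.

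Myrf went from 6.96 FPKM in Control to 3.07 in Rheb cKO, 44.2% of the Control level. The authors' deposited table gives a log2 fold change of -1.18 (q = 0.00161, Cuffdiff), place 172 from the lowest. Myrf occupies 10208272 to 10240748 of chromosome 19 on the minus strand. The ratio of Myrf to Sox10, the factor it works with, was 0.237 in Control and 0.143 in Rheb cKO. Tmem98, whose membrane protein binds MYRF and limits its cleavage, fell as well, from 5.38 to 3.29 FPKM (-0.71, q = 0.0224, authors' deposited table).

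Zfp488 and Tcf7l2, the remaining factors of differentiation, were not called. Zfp488, a zinc finger protein that promotes differentiation together with OLIG2, stood at 5.98 FPKM in Control and 6.30 in Rheb cKO, the only fold above 0 among the 9 (0.08, q = 0.842, authors' deposited table). Tcf7l2, a partner of beta-catenin that is high in newly formed oligodendrocytes and in thalamic neurons, stood at 1.41 and 1.204 FPKM (-0.23, q = 0.666, authors' deposited table). It spans 55741820 to 55933654 of chromosome 19, plus strand. Beside it, 1 of 7 thalamic neuron markers was lower (4.58% of all genes) and 0 higher (4.14%). The summed level of these markers was 75.6 FPKM in Control and 80.2 in Rheb cKO. Calb2, which was not called, gave 35.3 FPKM of the Control sum and 39.9 of the Rheb cKO sum. The part of these markers in the Tcf7l2 value was not tested.

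**Figure D2:**
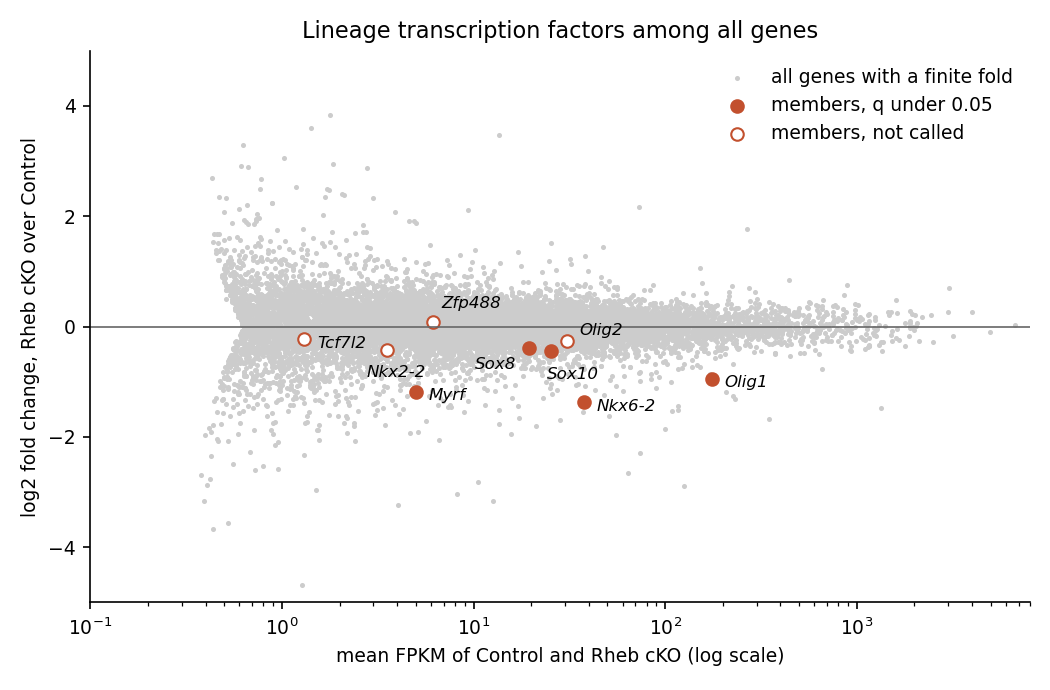
Log2 fold change (Rheb cKO over Control) against mean FPKM on a log axis, with all genes in grey and the 9 factors marked (filled where q is under 0.05). Nkx6-2, Myrf and Olig1 lie at or below -0.95, and the other 6 lie between -0.45 and 0.08.

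The median fold of the factors lay between that of precursor markers and that of myelin genes. The 10 precursor markers, among them Pdgfra and Cspg4, had a median log2 fold change of 0.00. By Cuffdiff 0 of them were called, beside 8.72% of all genes in either direction. At an unadjusted p under 0.05 there was 1, with a fold above 0. The most abundant of the 10 was Cacng4 (-0.11, q = 0.703, authors' deposited table). The 8 markers of committed and newly formed cells had a median of -0.30, with 2 called lower (4.58% of all genes) and 0 higher (4.14%). The 2 lower ones were Bmp4 (-0.67, q = 0.0241) and Gpr17, a receptor of committed precursors (-0.58, q = 0.00161), in the authors' deposited table. The 19 myelin and late genes had a median of -1.66, and 19 of 19 were called lower, ranging from -2.89 for the iron carrier Trf to -0.70 in the authors' deposited table. Examples from the authors' deposited table are Gjb1, a gap junction protein of myelin (-2.05), Mog, a myelin surface protein (-1.96), and Fa2h, which makes hydroxylated myelin lipids (-1.94), each with q = 0.00161.

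Set against the myelin median, Nkx6-2 lay 0.29 above it on the log2 scale, Myrf 0.48, Olig1 0.71 and the other 6 factors 1.21 to 1.73. Among the 9 factors, those of differentiation ranged most widely, from -1.37 for Nkx6-2 to 0.08 for Zfp488, with a median of -0.71 over 4 genes. The 5 factors present from the precursor onward ranged from -0.95 to -0.26, with a median of -0.43. These differences between gene groups are descriptions and were not tested.

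**Figure D3:**
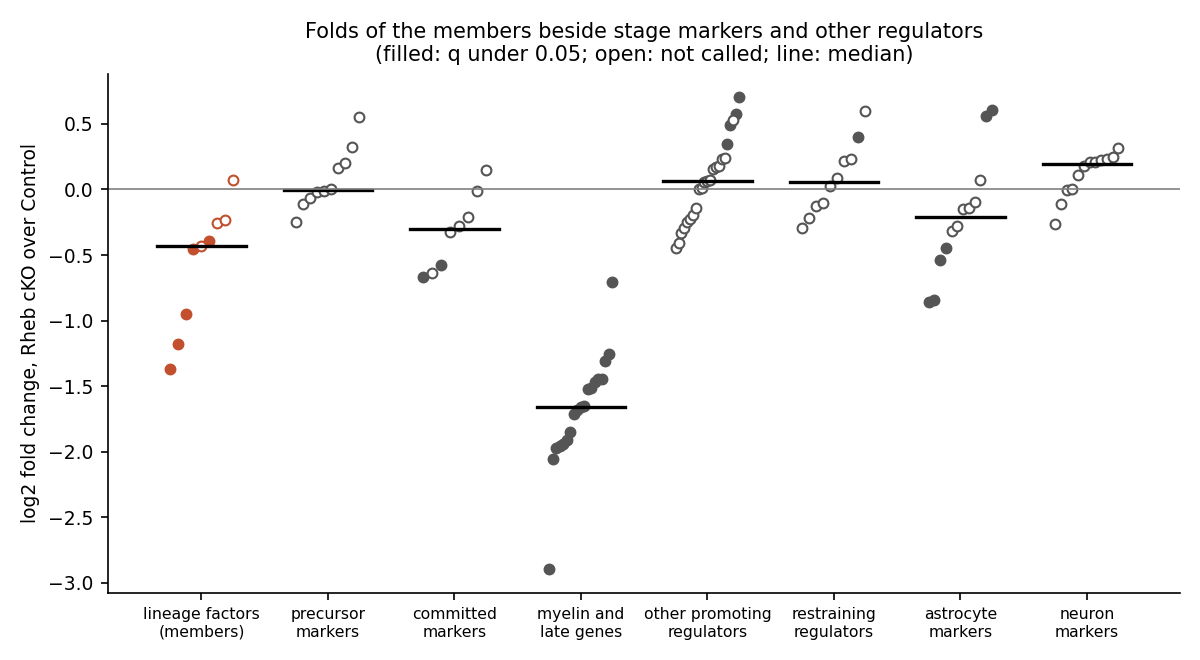
Log2 fold change (Rheb cKO over Control) of each gene in the 9 factors and in 7 other lists, with filled points for q under 0.05 and a line at the median. The factors have a median of -0.43, precursor markers 0.00, committed markers -0.30 and myelin genes -1.66, while both lists of other regulators sit near 0.

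Of 46 measured genes in 6 lists of partners and further regulators, 2 were called lower (4.58% of all genes), 6 higher (4.14% of all genes) and 38 not at all, and their median log2 fold change was 0.06. Among 23 regulators that promote the lineage 4 were higher and 0 lower by Cuffdiff, with 1 lower at an unadjusted p under 0.05. The thyroid hormone receptor gene Thra went from 685 to 1023 FPKM (0.58, q = 0.00161) and Klf9, a thyroid hormone target that aids differentiation, from 11.99 to 19.5 FPKM (0.70, q = 0.00161), both in the authors' deposited table. Chd8, a chromatin remodeller (0.49, q = 0.00785), and Nfib (0.35, q = 0.0432) rose as well in the authors' deposited table. Thra overlaps Nr1d1 on the opposite strand by 1075 bases, no strand setting is given, and Nr1d1 was not called (0.38, q = 0.616, authors' deposited table). Many of these regulators are also used by neurons and astrocytes.

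Of 10 genes that hold differentiation back, 1 was called higher (4.14% of all genes), 0 lower (4.58%) and the other 9 were not called. The higher one was Id2, an inhibitor of helix-loop-helix factors such as the OLIG proteins. It rose from 48.9 to 64.6 FPKM (0.40, q = 0.0270, authors' deposited table). The E proteins that pair with OLIG1 and OLIG2 were not called, the most abundant being Tcf4 (0.12, q = 0.644, authors' deposited table). The ST18 relative Myt1l, a neuronal factor, rose from 19.8 to 25.3 FPKM (0.35, q = 0.0367, authors' deposited table). Among 7 genes of the TCF/LEF and beta-catenin group, 1 was called lower (4.58% of all genes) and 0 higher (4.14%). The lower one was Nkd1, an inhibitor of Wnt signalling, which fell from 4.22 to 2.84 FPKM (-0.57, q = 0.00699, authors' deposited table).

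Some of the factors are also made by other glia, so markers of those cells are given beside them. Astrocytes express Sox8, and some express Olig1 or Olig2. Of 12 astrocyte markers 4 were lower and 2 higher, beside 4.58% and 4.14% of all genes. The other 6 were not called. The median log2 fold change of the 12 was -0.21, with a summed level of 2413 FPKM in Control and 1910 in Rheb cKO. Aldoc, 1 of the lower ones, gave 1554 FPKM of the Control sum and 1142 of the Rheb cKO sum (-0.44, q = 0.0317, authors' deposited table). In the authors' deposited table Ntsr2 (-0.86, q = 0.00161) and S100b (-0.85, q = 0.00161), the latter also found in oligodendrocytes, fell, while Gfap (0.61, q = 0.0189) and Fgfr3 (0.56, q = 0.00161) rose. Of 6 endothelial and mural markers with values, 4 were lower (4.58% of all genes), and 6 of 6 folds were below 0. Their median was -0.76, against -0.43 for the factors, and their summed level was 74.1 FPKM in Control and 39.7 in Rheb cKO. The lower ones were Kcnj8 (-1.29, q = 0.00161), Vtn (-1.08, q = 0.00161), Acta2 (-0.90, q = 0.0218) and Rgs5 (-0.61, q = 0.00161) in the authors' deposited table. There the endothelial marker Cldn5 (-0.27, q = 0.648) and Pdgfrb (-0.22, q = 0.548) were not called. Pecam1, Flt1, Kdr and Slco1a4 had no value. By Cuffdiff 0 of 8 microglia markers and 0 of 12 neuron markers were called, beside 8.72% of all genes in either direction. At an unadjusted p under 0.05 there were 1 and 4, of which 0 and 1 were lower, beside 2798 of all 13192 genes. The median log2 fold change was 0.15 for microglia markers, with 4 of 8 folds below 0. For neuron markers it was 0.19, with 3 of 12 folds below 0. The most abundant of each list were Aif1 (-0.10, q = 0.904) and Snap25 (-0.01, q = 0.987) in the authors' deposited table. Of 6 markers of Schwann cells, the myelinating cells outside the brain that also use SOX10, 3 had values. By Cuffdiff 0 of these 3 were called, beside 8.72% of all genes, and 0 had an unadjusted p under 0.05. The most abundant was Pou3f1 (-0.01, q = 0.975, authors' deposited table). Synpo2 was the thalamic marker that fell (-1.07, q = 0.00625, authors' deposited table). The part of these other cells in the values of the factors was not tested.

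Several of the factors share genomic sequence with a gene on the opposite strand in GENCODE M21, an annotation of mm10. Nkx6-2 (chromosome 7, minus strand, 139579376 to 139582797) overlaps the end of Inpp5a, a phosphatase gene, by 277 bases. The table gives both genes 1 shared locus of 193689 bases, and 10.7% of the 50-base stretches of Nkx6-2 transcripts occur in Inpp5a transcripts on the other strand. Inpp5a itself was at 20.7 and 18.1 FPKM (-0.19, q = 0.523, authors' deposited table), against -1.37 for Nkx6-2. Sox8 overlaps the antisense gene 2810468N07Rik by 329 bases at its 5′ end, and 8.99% of its 50-base stretches are shared with it. That gene fell from 29.9 to 19.3 FPKM (-0.63, q = 0.00161, authors' deposited table). How far its fragments were counted toward Sox8 was not tested. Nkx2-2 (chromosome 2, minus strand, 147177546 to 147194243) shares 8.04% with the antisense Nkx2-2os, and Olig1 shares 5.11% with a long noncoding RNA gene. The deposited locus of Nkx2-2 spans 154136 bases and ends at 147331681, where Nkx2-2os ends. Another antisense gene, 6430503K07Rik, overlaps the span of Nkx2-2 by 984 bases but shares no 50-base stretch with Nkx2-2 transcripts. It was not called (2.22 and 2.04 FPKM, q = 0.967, authors' deposited table). How far fragments of these genes were counted toward Nkx2-2 was not tested. Olig2, Sox10, Myrf and Tcf7l2 share no such stretch with another gene on either strand. Zfp488 (chromosome 14, minus strand, 33967070 to 33978764) shares 638 of 4252 such stretches on its own strand and 14.4% on the opposite strand, with 250 other genes in all, and how shared reads were assigned is not stated. Between Olig1 and Olig2, and between Sox10 and Sox8, no 50-base stretch is shared.

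Promoter windows from RefSeq (GRCm38.p6, the assembly of mm10) were at hand for 6 of the 10 genes, Nkx2-2, Nkx6-2, Olig2, Sox8, Tcf7l2 and Zfp488. The 250 bases before the start site are shown for the called genes Nkx6-2 and Sox8, beside Nkx2-2, whose fold was of like size to that of Sox8, and beside Olig2 and Zfp488, which were not called. They are read 5′ to 3′ on the strand of the gene, and capitals mark matches to the E-box CANNTG, the motif family that basic helix-loop-helix factors such as the OLIG proteins bind. Nkx6-2 is at chr7:139582798-139583047, Sox8 at chr17:25570687-25570936, Nkx2-2 at chr2:147186403-147186652 and Zfp488 at chr14:33978765-33979014, all on the minus strand, and Olig2 is at chr16:91225300-91225549 on the plus strand. Start sites are those of RefSeq. The Nkx2-2 window lies inside the GENCODE span of that gene given above, and the Olig2 window runs into the span of Olig2.
Nkx6-2: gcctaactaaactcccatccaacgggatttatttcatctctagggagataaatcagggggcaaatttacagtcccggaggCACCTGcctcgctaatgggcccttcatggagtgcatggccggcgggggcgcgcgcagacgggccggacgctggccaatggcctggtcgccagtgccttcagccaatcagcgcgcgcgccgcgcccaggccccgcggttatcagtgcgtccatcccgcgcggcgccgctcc
Sox8: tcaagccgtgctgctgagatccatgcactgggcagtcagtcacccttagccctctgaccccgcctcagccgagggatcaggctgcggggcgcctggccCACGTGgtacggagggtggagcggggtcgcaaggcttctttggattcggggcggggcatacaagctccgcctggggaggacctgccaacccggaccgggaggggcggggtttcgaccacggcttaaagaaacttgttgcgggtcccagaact
Nkx2-2: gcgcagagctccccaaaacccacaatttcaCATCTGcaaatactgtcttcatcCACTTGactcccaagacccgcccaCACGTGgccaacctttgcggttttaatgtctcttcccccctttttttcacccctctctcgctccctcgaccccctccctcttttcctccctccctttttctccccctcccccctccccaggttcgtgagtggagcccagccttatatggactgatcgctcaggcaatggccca
Olig2: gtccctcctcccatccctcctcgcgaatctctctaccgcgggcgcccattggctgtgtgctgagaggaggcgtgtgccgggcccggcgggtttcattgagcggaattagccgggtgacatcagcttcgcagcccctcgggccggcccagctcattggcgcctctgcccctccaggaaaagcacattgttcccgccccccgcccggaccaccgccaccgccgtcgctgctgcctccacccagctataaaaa
Zfp488: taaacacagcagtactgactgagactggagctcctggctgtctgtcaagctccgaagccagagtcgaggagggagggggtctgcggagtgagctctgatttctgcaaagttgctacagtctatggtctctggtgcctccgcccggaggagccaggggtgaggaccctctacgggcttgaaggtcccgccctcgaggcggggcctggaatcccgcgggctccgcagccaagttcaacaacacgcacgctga

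The windows of Nkx6-2 and Sox8 each hold 1 E-box, at -170 and at -152 from the start site, and that of Nkx2-2 holds 3. Those of Olig2 and Zfp488 hold 0. An E-box occurs in 66.2% of all 32807 promoter windows of the same length, and the median number is 1. Other motifs were searched on both strands: ACAAAG for SOX factors, ATCAAAG for TCF/LEF factors, AAGTG for NKX2 factors and CTGGCAC for MYRF, of which AAGTG can overlap an E-box. In the 7 windows of the 6 genes, ACAAAG was found 1 time, before the second Tcf7l2 start site (16.5% of all windows hold it). AAGTG was found before that site and inside an E-box of Nkx2-2 (40.7% of all windows). The motifs ATCAAAG and CTGGCAC, held by 3.21% and 4.19% of all windows, had no match in the 7. G and C made up 65.2% of the window of Nkx6-2, 65.6% of Sox8, 66.8% of Olig2, 61.6% of Zfp488, 56.4% of Nkx2-2 and 72.8% and 40.8% of the windows of Tcf7l2, against a median of 52.4% over all windows. These matches describe the sequence alone, and no binding was measured.

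**Figure D4:**
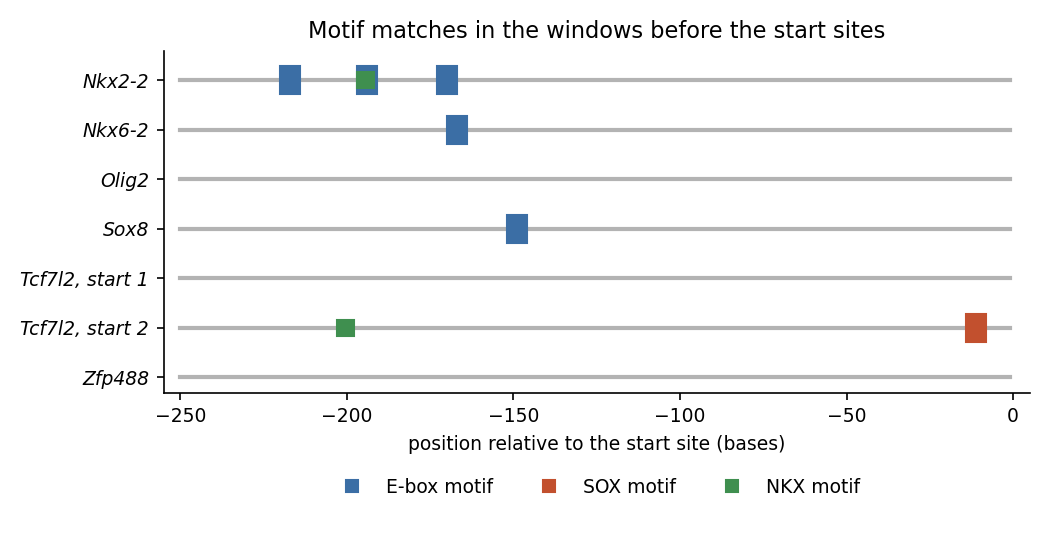
Matches to the E-box, SOX and NKX motifs in the 250 bases before the RefSeq start sites of 6 factors, by position relative to the start site (Tcf7l2 has 2 start sites). The start site used for Nkx2-2 lies inside its GENCODE span. Nkx2-2 holds 3 E-boxes, 1 of them overlapping an NKX match, Nkx6-2 and Sox8 hold 1 each, and Olig2, Zfp488 and the first Tcf7l2 start site hold no match.

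For each called factor, the 3 protein-coding genes nearest to it by distance of log2 FPKM over the pooled values of the 2 groups were listed as a description of likeness. Nearest to Nkx6-2 were Gamt, an enzyme of creatine synthesis (55.2 and 19.0 FPKM, distance 0.15), Vtn (51.5 and 24.4 FPKM) and Thrsp (47.2 and 22.9 FPKM). Nearest to Myrf were Apln, a signalling peptide (6.81 and 3.03 FPKM, distance 0.038), Fam222a and Rnf39. Nearest to Olig1 were the astrocyte gene Ntsr2 (222 and 122 FPKM, distance 0.069), Scd2, a fatty acid desaturase, and Pgp. Nearest to Sox10 were Txnl4a, Dhrs7 and Slc7a10, and nearest to Sox8 were Wdr75, Capn2 and Panx1. None of the genes nearest to Sox10 or Sox8 was called. Wdr75 stood at 22.06 and 16.77 FPKM (q = 0.379, Cuffdiff, authors' deposited table), beside 22.05 and 16.76 for Sox8. The measure uses the level in both groups, so folds close to that of the factor follow from the choice.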

How the data were processed

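RNA on HA-tagged ribosomes was measured by RNA sequencing in 3 Control and 3 Rheb cKO libraries of mouse cortex; groups come from the sample titles. TopHat2 2.1.0, Cuffdiff 2.2.1 and mm10 appear, without role, in the submitters' processing notes. The kit was a stranded one for mRNA (per the labels' protocols), while annotation release and counting strand were not given in the sources used here. The authors deposited, per the file headers, 1 FPKM value per gene and group, a log2 fold change (Rheb cKO over Control), a test statistic (a score), a p-value and a q-value. The deposited p-values go no lower than 5e-05, so 410 genes share the smallest q, 0.00161. Depth per library is unknown, and precision rests on the authors' q.

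No new test was run: a gene is called at a deposited q under 0.05, adjusted over all 13192 genes. Folds and summaries use the 13175 genes with a finite fold. Symbols turned into dates (23) were restored by gene ID. The Benjamini-Hochberg step, used for an alternative filter, was tested on simulated data and gave the authors' q to within 7.27e-05. Coordinates come from GENCODE M21 and count from 1. Stretches of 50 bases were compared over all M21 transcripts. Python 3.11.15, numpy 2.4.6, pandas 2.3.3 and matplotlib 3.10.9 were used.

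The members and the 15 gene lists (144 genes) were chosen with earlier results of these data known. The text names all members, up to 4 called genes per list with the largest absolute fold (mean FPKM at least 1), or else the most abundant one, and the 3 genes nearest to each called member. Rheb, Pdgfra, Cspg4, Sox9, Nr1d1, Calb2 and Aldoc fall outside that rule. So do Cldn5, Pdgfrb, Pecam1, Flt1, Kdr, Slco1a4, the overlapping genes and the neighbours in the closing section.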

Additional observations from a re-analysis of the deposited data

How the results depend on the processing

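At a q under 0.01 the count of factors called lower went from 5 to 3, with Sox10 and Sox8 no longer called. It stayed at 5 when adjusted over genes whose mean FPKM was at least 1 and at an unadjusted p under 0.05, and the count called higher was 0 in each case. The median log2 fold change of the 9 factors lay between -0.46 (folds centred on the median gene) and -0.38 (1 FPKM added to both groups). Of 36 single-gene values under 4 alternatives (1 or 0.1 FPKM added, centring, equal column sums), 34 kept their direction and stayed within 1.5 times; none reversed. The other 2 were genes not called, Tcf7l2 (-0.13 with 1 FPKM added) and Zfp488 (0.044 with centring). No paired analysis was possible because the values are pooled per group and carry no library; for the same reason no library could be left out. How many fragments lie behind a value is unknown, so what the low levels of Tcf7l2 and Nkx2-2 could show is unknown too.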

Other observations

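Of 12 annotated genes with a value within 20 kb of a factor, 3 were called lower and 0 higher by Cuffdiff, beside 4.58% and 4.14% of all genes (0 were higher at an unadjusted p under 0.05 as well). Besides 2810468N07Rik at Sox8, these were Fads1, a fatty acid desaturase beside Myrf, from 81.5 to 49.3 FPKM (log2 fold change -0.73, q = 0.00161), and Micall1, near Sox10, from 6.48 to 4.48 FPKM (-0.53, q = 0.0392), in the authors' deposited table. The nearest genes on either side of Myrf with a value were not called: Tmem258 (-0.30, q = 0.495) and Dagla (-0.03, q = 0.951) in the authors' deposited table. Polr2f, 3133 bases from Sox10, stood at 265 and 270 FPKM, a fold of 0.03 (q = 0.955, authors' deposited table). These genes were chosen by position, and their values are given without a test of the neighbourhood.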
